A study of Mus musculus with 29 samples.

Results

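The genes described here are 47 genes of bone morphogenetic protein (BMP), TGF-beta and activin signalling in the mouse digit, taken as a list by symbol and grouped by role: 17 ligands, 11 receptors, 7 extracellular antagonists including the pseudoreceptor Bambi, 4 latent TGF-beta binding proteins, and 8 targets of the pathway (4 Id genes, Smad6, Smad7, Smad9 and Tgfbi). All 47 were among the 24411 genes listed in one table and the 55487 gene identifiers listed in another. After a filter on low counts, all 47 were tested in the first table. In the second, 46 were tested, the exception being Gdf15, which had at most 0.231 CPM in any library (CPM is a gene's count scaled to a common library size).

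Poly(A) RNA was sequenced in 29 libraries of the left hindlimb digit of mice, collected distal to the metacarpophalangeal joint without the nail; the sources used here name no strain, age or sex. In the time course, spared nerve injury (SNI), which cuts the sciatic nerve's tibial and common peroneal branches, was compared with sham surgery in which no nerve was cut. Every animal of the time course then lost its digit tip by amputation through the third phalanx 5 days after surgery, and digits were taken 7 days (3 sham, 3 SNI), 14 days (3 sham, 3 SNI) and 21 days (2 sham, 3 SNI) later. In a second set of 12 libraries all animals had SNI, with amputation recorded at 5 days after surgery as in the time course. Digits with amputation (3 at day 7, 3 at day 14) were compared with digits labelled as having none (3 at day 7, 3 at day 14). The labels of these unamputated digits still count time from amputation and name a regenerate, so only their treatment label separates them. SNI cuts only part of the sciatic nerve, so the remaining branch is spared, and each library mixes all cell types of the digit: in such bulk samples, fewer cells of a type and less RNA per cell cannot be told apart.

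Ligands of this family bind pairs of type I and type II receptor kinases, which phosphorylate Smad proteins that enter the nucleus with Smad4. BMPs act mainly through Smad1, Smad5 and Smad9, and TGF-betas, activins and myostatin through Smad2 and Smad3, while Smad6 and Smad7 inhibit the pathway. Secreted antagonists such as noggin, gremlin, chordin and follistatin hold ligands away from their receptors, and some latent TGF-beta binding proteins, though not all, store TGF-beta in the matrix in an inactive form. In the mouse digit tip, BMP signalling is known for its part in regrowth of the bone.

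Total counts were between 35654192 and 56809440 per library in the time course and between 31274245 and 43315729 in the second set. The TMM normalization factors of the second set were all between 0.954 and 1.039. In the time course they reached 1.107, and 2 libraries stood apart with factors of 0.6327 (sham day 21, replicate 1) and 0.7611 (SNI day 7, replicate 2). These 2 libraries were both below all 15 others for 23 of the 47 genes (48.9%) and both above them for none, against 24.5% and 23.3% of all genes tested. The first component held 63.7% of the variance of log2 CPM in the time course and 22.2% in the second set. In the time course these 2 libraries lay at 141.1 and 131.7 on it, but the spread was graded. SNI replicates 2 and 3 lay between 23.91 and 71.69 at days 14 and 21, and SNI day 7 replicate 3 at 26.8. SNI replicate 1 lay at -13.98, -62.43 and -31.5 at days 7, 14 and 21, and the other sham libraries between -75.46 and -22.36. The cause of this spread was not tested. Markers of the labelled tissue were present throughout: the summed CPM of the keratinocyte genes Krt5, Krt14, Col17a1 and Trp63 was between 7243 and 15430 in every library.

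Levels could be compared between genes only per length, and the order depends on the length used. Tgfb1 has 5.042 kb of merged annotated exons but a longest coding transcript of 2.175 kb, where Bmp7 has 4.019 and 3.67 kb. A ranking by transcript length was not computed and could differ, for Tgfb1 above all. Levels are given here as CPM per kilobase of merged exon. By this scale the strongest ligand was Bmp7 in both tables, with a median of 18.3 CPM per kilobase (16.0 to 24.0) over the 12 libraries of the second set, and no overlap with Bmp4, a ligand of limb mesenchyme, at 9.45 (7.56 to 10.9). Inhbb, which codes for the activin B subunit, followed at 8.85, Bmp2 at 7.61, Tgfb3 at 7.47, Tgfb1 at 6.92 and Gdf10 at 6.40, and these neighbours overlapped one another. Tgfb2, Bmp6 and Bmp5 lay between 2.93 and 3.94, Inhba, the activin A subunit, at 1.42, and Mstn (myostatin, the inhibitor of muscle growth) at 0.694. Bmp3, Gdf5, Gdf11 and Gdf6 were between 0.413 and 0.493 and Gdf15 was lowest at 0.0721.

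Among receptors, the type I receptor Bmpr1a had 22.8 CPM per kilobase (21.6 to 28.3) and the activin type I receptor Acvr1b 21.6 (17.9 to 27.9), with overlap. The TGF-beta type II receptor Tgfbr2 followed at 14.5 and the co-receptor Tgfbr3 (betaglycan) at 11.8. Bmpr2 at 9.44, Acvr2a at 7.59, Acvr1 at 6.26, Tgfbr1 at 5.78 and the endothelial receptor Acvrl1 at 5.48 came next, again with overlap between neighbours. Acvr2b and Bmpr1b were far lower, with medians of 0.535 and 0.305 and no overlap with Acvrl1. Of the antagonists, the follistatin-like gene Fstl3 was highest at 9.20 (8.07 to 10.5), above Bambi at 5.77 (4.14 to 7.83) without overlap, and Chrd lowest at 0.651. Ltbp4 was at 67.4 (55.0 to 81.2), above Ltbp3 at 13.6, Ltbp1 at 4.23 and Ltbp2 at 2.34. Targets ranged from Tgfbi, an extracellular matrix protein, at 75.3 and Id1 at 59.7 down to Smad9 at 0.289. The same gene led each role in the time course, where Bmp7 overlapped Bmp4 and Tgfbr2 was second among receptors.

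The second set asks how the amputated digit differs from the unamputated one when both have SNI. Averaged over both days, amputated digits had less Mstn and Bmp6 and more Gdf11, Fst and Id3. These 5 of 46 genes tested (10.9%) were called at an adjusted p under 0.05, where 11.8% of all 17475 genes were: 3 were called as higher, beside 5.71% of all genes, and 2 as lower, beside 6.08%. The share of the list is close to that background. At day 7 alone 1 of the 46 was called, Mstn, beside 1.35% of all genes, and at day 14 none, beside 2.75%.

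**Figure D1:**
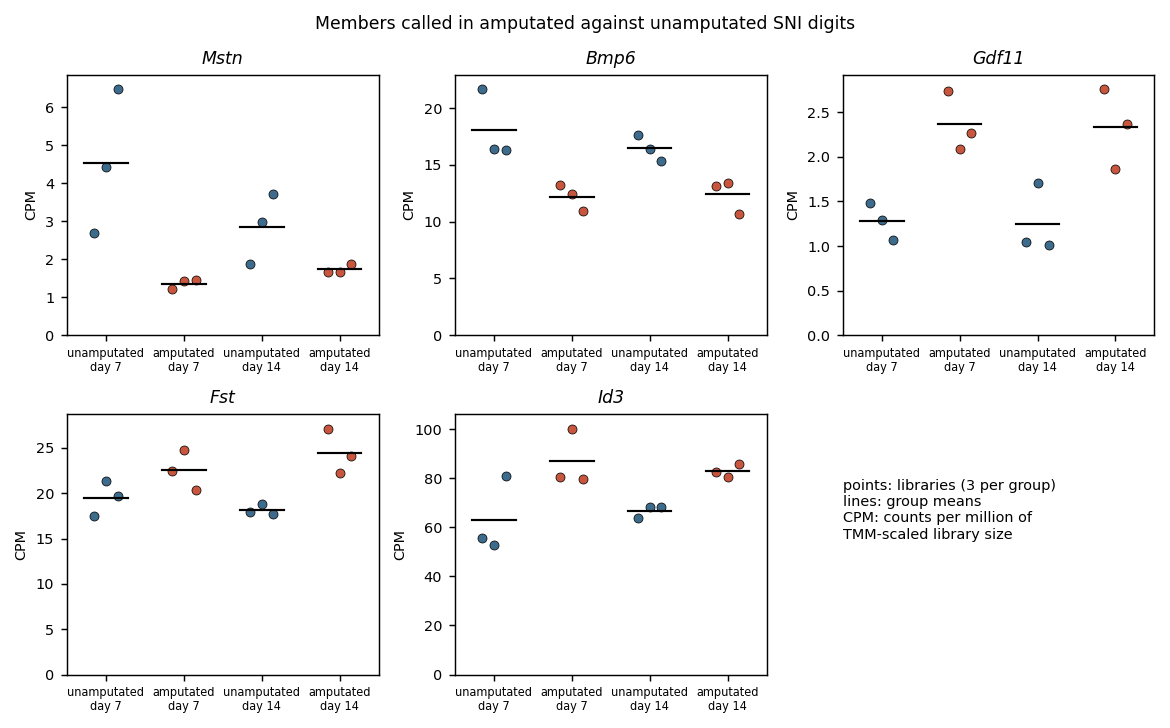
CPM (vertical axes, from 0) of Mstn, Bmp6, Gdf11, Fst and Id3 in the 12 libraries of the second set. Each point is a library, 3 per group, blue without and red with amputation, and lines are group means; the 6 amputated libraries of Mstn lie between 1.21 and 1.88.

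Mstn had 1.21, 1.42 and 1.44 CPM in the amputated digits at day 7 and 2.68, 4.42 and 6.47 in the unamputated ones. At day 14 the values were 1.66, 1.66 and 1.88 with amputation and 1.88, 2.98 and 3.72 without it. The groups did not overlap at day 7, while at day 14 the lowest unamputated library met the highest amputated one. The log2 fold change was -1.73 ± 0.32 (SE, adjusted p = 0.0197) at day 7, -0.73 ± 0.31 (adjusted p = 0.181) at day 14 and -1.23 ± 0.22 (adjusted p = 0.00748) on average. The difference between the days, 1.01 ± 0.44, had an adjusted p of 0.784. Mstn rests on 54 to 224 counts per library. Its call at day 7 was lost when any amputated day 7 library, or replicate 2 or 3 of the unamputated ones, was left out , and with voom or a fit of these groups alone (adjusted p from 0.0509 to 0.0805).

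Mstn is best known from skeletal muscle. The summed CPM of 7 muscle genes (Acta1, Ckm, Myh1, Myh2, Myh4, Tnnt3, Mylpf) in the second set was between 2.79 and 9.47 in amputated and between 2.46 and 4.25 in unamputated digits, and the average called none of the 5 that could be tested. Schwann cell genes were lower between the groups like Mstn: Mbp, Prx and Pmp22, 3 of 3, were called as lower after amputation in the average. Their summed CPM was between 102 and 176 in the 6 amputated libraries and between 247 and 298 in the unamputated ones, and none of the 3 was at 0 in every library of a group. Within the unamputated digits of day 7 the sum was 262.6, 265.3 and 256.7, while Mstn was 2.68, 4.42 and 6.47. Of 5 genes of differentiated epidermis, 4 were also called as lower. The part of these cell types in the Mstn result was not tested.

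**Figure D2:**
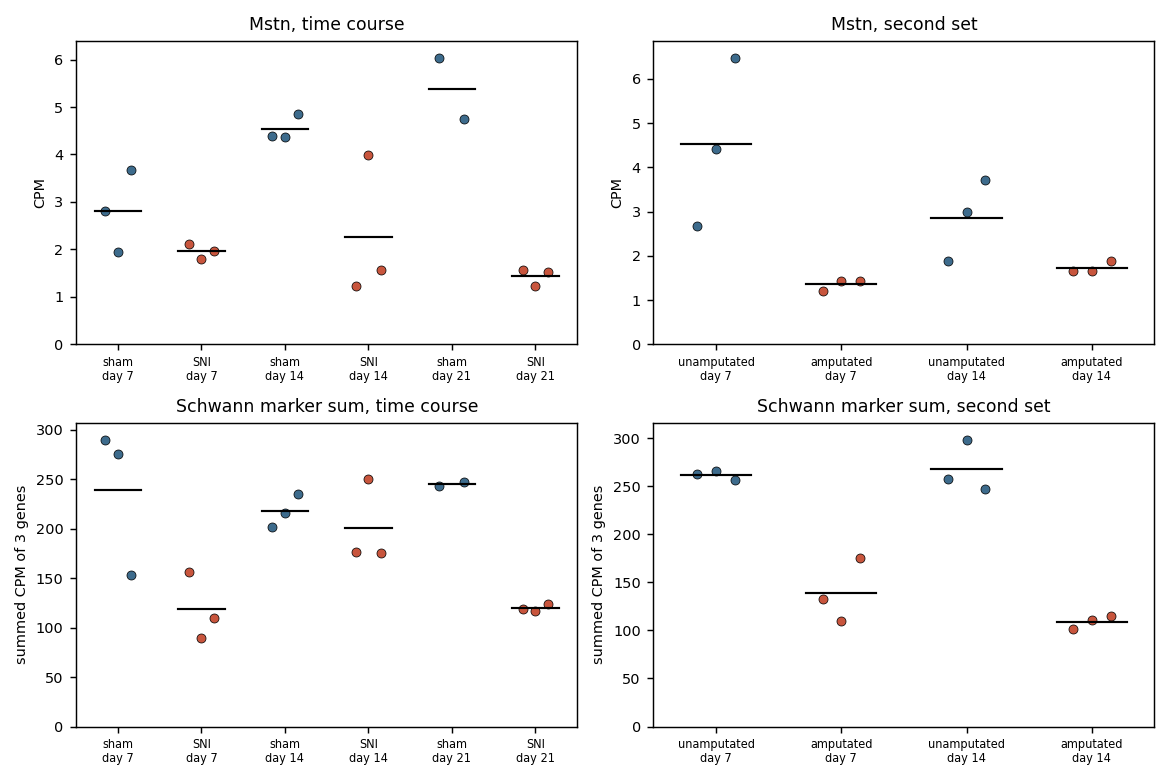
Mstn in CPM (upper row) and the summed CPM of 3 Schwann cell genes (lower row) for each library of the time course (left) and the second set (right), with lines at group means; blue marks sham or unamputated, red SNI (left) or amputated (right). SNI day 14 replicate 2 has the highest value of its group in both left panels, 3.99 for Mstn and 249.8 for the marker sum. Sham day 7 replicate 3 has the highest Mstn of its group, 3.67, and the lowest marker sum, 152.8.

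Bmp6, a BMP ligand made by bone, cartilage and other tissues, had 13.2, 12.5 and 11.0 CPM in amputated digits at day 7 against 21.7, 16.4 and 16.3 in unamputated ones. At day 14 the values were 13.2, 13.4 and 10.7 against 17.6, 16.4 and 15.4. All amputated libraries were below all unamputated ones at both days; Bmp6 was the 1 gene of the list of which this held (2.17%, beside 3.42% of all genes). It fell by 0.49 ± 0.10 (SE, log2, adjusted p = 0.0118) on average.

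Gdf11, the closest relative of Mstn and a ligand that patterns the body axis in the embryo, went the other way. Its amputated libraries had 2.74, 2.08 and 2.27 CPM at day 7 and 2.76, 1.87 and 2.37 at day 14. The unamputated ones had 1.482, 1.295 and 1.069 at day 7 and 1.05, 1.70 and 1.01 at day 14. Gdf11 rose by 0.89 ± 0.185 (SE, log2, adjusted p = 0.0135), on 34 to 122 counts per library. At day 14 alone it was 0.90 ± 0.26, adjusted p = 0.0726. Together with Gdf5, a joint and cartilage ligand, it lay above all unamputated libraries at both days (2 genes, 4.35%, beside 4.29% of all genes). Gdf5 itself was not called (log2 fold change 0.72 ± 0.25, adjusted p = 0.0741), with 1.26, 1.27 and 1.07 CPM against 0.962, 0.782 and 0.954 at day 7 and 1.17, 2.47 and 1.14 against 0.584, 0.625 and 1.11 at day 14.

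The other ligands did not pass. Tgfb3, which has a role in palate and wound repair, came nearest (log2 fold change 0.42 ± 0.13, adjusted p = 0.0504 on average). It had 44.9, 24.7 and 41.8 CPM in amputated digits at day 14, where replicate 2 lay with the unamputated libraries (25.1, 24.0 and 25.3). Replicate 2 also had a sum of 129 CPM over 7 osteoblast genes, against 458 and 433 in the other amputated day 14 libraries, and 2146 against 10290 and 9676 over 4 fibroblast genes; the part of these cells in the Tgfb3 values was not tested. Without that library, Tgfb3 and Ltbp2 were called at day 14 (2 of 46, beside 0.762% of all genes). Bmp2, a bone-inducing ligand, was 22.3, 23.9 and 25.6 against 27.6, 30.2 and 24.8 CPM at day 7 and 25.2, 26.4 and 28.6 against 29.0, 30.1 and 31.5 at day 14 (-0.19 ± 0.07, adjusted p = 0.0849). Bmp7 and Bmp4, the 2 strongest ligands per kilobase of exon, had log2 fold changes of -0.01 ± 0.07 and 0.09 ± 0.09. Of the 16 ligands tested, 11 had a positive and 5 a negative fold change on average, with a median of 0.18; the median of all genes was 0.01.

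None of the 11 receptors was called at either day or on average. Their median log2 fold change was 0.03, and they ran from -0.15 (Acvr2a) to 0.21 (Tgfbr1). Acvr2a, a type II receptor for activins and myostatin, had 43.0, 44.2 and 41.1 CPM in amputated and 55.1, 45.5 and 56.6 in unamputated digits at day 14, without overlap (-0.29 ± 0.09, adjusted p = 0.0850). At day 7 the same receptor overlapped, with 43.3, 40.5 and 40.7 against 41.4, 44.9 and 39.5. Bmpr1a and Bmpr2, the main BMP receptors by level, had averages of 0.03 ± 0.08 and 0.04 ± 0.06.

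**Figure D3:**
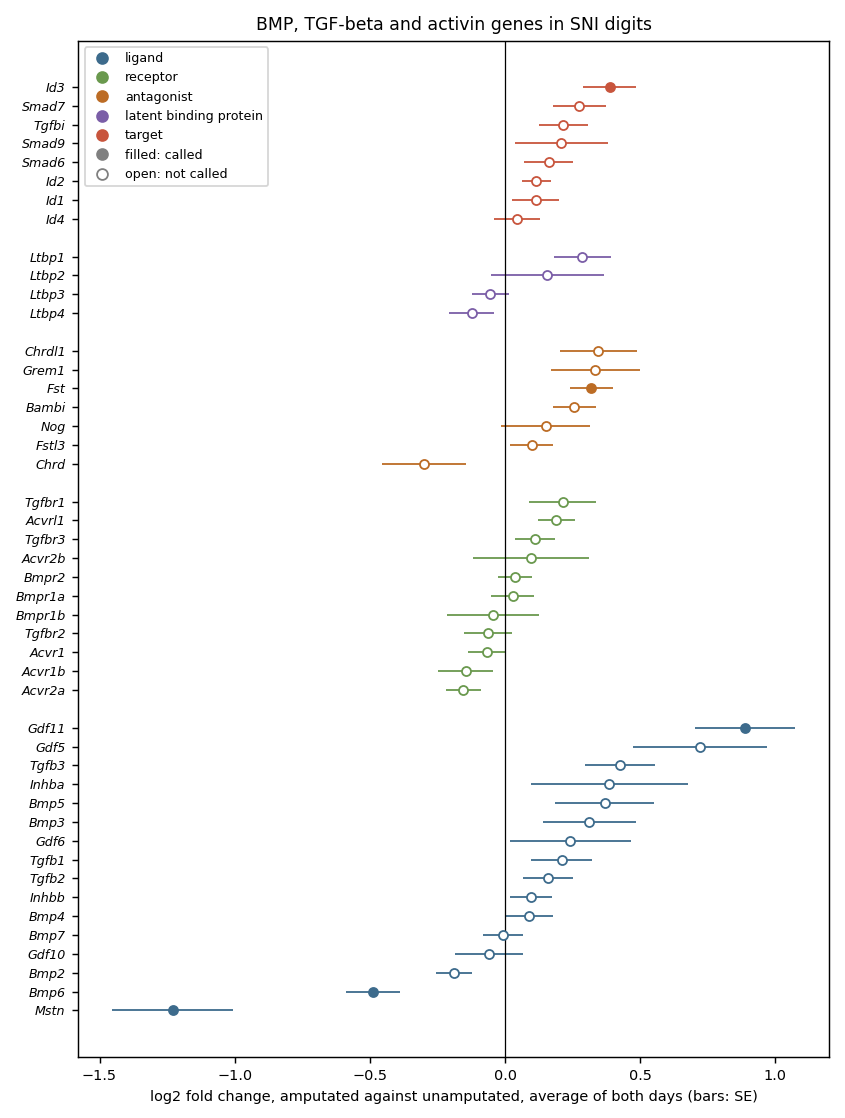
Log2 fold change of 46 genes in amputated against unamputated SNI digits, average of both days (horizontal axis), with bars of 1 SE, ordered within each role by colour; filled points were called. Mstn is lowest at -1.23 and Gdf11 highest at 0.89, and all 8 targets lie above 0.

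Among antagonists, Fst (follistatin), which binds activins, myostatin and Gdf11, was called. It had 22.4, 24.8 and 20.3 CPM in amputated against 17.5, 21.4 and 19.7 in unamputated digits at day 7, with overlap. At day 14 it had 27.1, 22.2 and 24.1 against 17.9, 18.8 and 17.7, without overlap. At day 14 alone Fst had a log2 fold change of 0.43 ± 0.11, adjusted p = 0.0543. Fst rose by 0.32 ± 0.08 (SE, log2, adjusted p = 0.0242) on average. Bambi, a receptor without a kinase that blocks signalling, was next (0.26 ± 0.08, adjusted p = 0.0523). Chrdl1, a chordin-like BMP antagonist, was 9.59, 12.2 and 10.6 CPM against 6.29, 8.31 and 5.14 at day 7 (0.71 ± 0.20, adjusted p = 0.117) but 6.36, 8.16 and 8.86 against 9.69, 7.04 and 6.99 at day 14. That change of pattern between the days had an adjusted p of 0.772. Of the 7 antagonists, 6 had positive averages and Chrd a negative one.

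The latent TGF-beta binding proteins did not pass, with averages of 0.29 for Ltbp1, 0.16 for Ltbp2, -0.05 for Ltbp3 and -0.12 for Ltbp4. Ltbp2, found with elastic fibres, had 31.1, 14.6 and 41.4 CPM in amputated digits at day 14 and 19.1, 19.2 and 15.9 in unamputated ones, so that again replicate 2 separated from the other amputated libraries.

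Id3, a helix-loop-helix inhibitor of differentiation and a direct BMP target, was called among the targets. It had 80.7, 100 and 79.8 CPM in amputated against 55.8, 52.7 and 80.9 in unamputated digits at day 7, where unamputated replicate 3 lay among the amputated values. At day 14 the values were 82.4, 80.7 and 85.7 against 63.7, 68.5 and 68.3, without overlap. Id3 rose by 0.39 ± 0.10 (SE, log2, adjusted p = 0.0285). All 8 targets had positive fold changes at day 7, at day 14 and on average, under both TMM and RLE scaling, though small ones: the medians were 0.174, 0.167 and 0.185, beside 0.0025, 0.0136 and 0.0112 for all genes. Smad7, the inhibitory Smad of TGF-beta signalling, averaged 0.27 ± 0.10 (adjusted p = 0.0828), Tgfbi 0.21 ± 0.09 (0.134), Smad9 0.21 ± 0.17 (0.449), Smad6 0.16 ± 0.09 (0.254), Id2 0.12 ± 0.05 (0.175), Id1 0.11 ± 0.09 (0.419) and Id4 0.05 ± 0.09 (0.758).

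Markers of other cells also moved after amputation. Of 5 osteoclast genes tested, 4 were called as higher, and the list of 6 summed to between 265 and 1709 CPM in amputated and between 103 and 289 in unamputated digits. Of 5 endothelial genes 3, of 7 osteoblast genes 2, of 4 fibroblast genes 1 and of 4 adipocyte genes 1 were called as higher, and of 8 neutrophil genes 1 as lower. No gene of the macrophage, cartilage, tendon, mural, basal keratinocyte, erythroid or immediate early lists was called in the average, which all these counts are of; at day 14, 1 of 4 mural genes was called as lower. None of these lists had a gene at 0 in every library of a group, and the part of these cells in the values of Gdf11, Fst and Id3 was not tested, nor that of the Schwann and epidermal genes, which were lower like Bmp6, in the Bmp6 values.

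Which members were called depended on single libraries and on the model. Mstn, Bmp6 and Gdf11 remained called in the average in all 12 fits that left out 1 library, while Id3 was lost in 7 of them and Fst in 4. The edgeR count of 5 was 8 with DESeq2 (17.5% of all genes) and 8 with voom (18.2%), and all 5 were among them each time. Day 7 gave 3 with DESeq2 (4.16%) and 1 with voom (2.16%; Id3 and not Mstn), and day 14 gave 4 (10.7%) and 11 (12.6%).

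The promoters of the called members were read to show the letters that Smads can bind; none of the measurements bears on binding. RefSeq promoters (GRCm38.p6, 250 bases before to 50 after the start) were found for 33 of the 47 members, 40 promoters in all, and Fst had none. They were searched on both strands for CAGAC (the Smad box), GGCGCC (a GC box bound by BMP Smads) and the palindrome GTCTAGAC, which Smad3 and Smad4 bind in vitro and which holds no whole CAGAC. The Smad box was in 22 of 40 (55%), beside 49.6% of all 32851 promoters. GGCGCC was in 13 of 40 (32.5%, among them those of Id2 and Id4), beside 11.9%, and base composition was not matched. GTCTAGAC was in 1 of 40, that of Smad6, beside 0.213%. The 250 bases before the start of Mstn (chr1:53061390-53061639, plus strand), Bmp6 (chr13:38345466-38345715, plus strand), Gdf11 (chr10:128891719-128891968, minus strand) and Id3 (chr4:136143572-136143821, plus strand) are shown because these 4 called genes have an entry, and 30 bases at the start of Smad6 (chr9:64022045-64022074, minus strand) because of the palindrome. They run 5′ to 3′ on the gene's strand, with motif letters in capitals.
Mstn: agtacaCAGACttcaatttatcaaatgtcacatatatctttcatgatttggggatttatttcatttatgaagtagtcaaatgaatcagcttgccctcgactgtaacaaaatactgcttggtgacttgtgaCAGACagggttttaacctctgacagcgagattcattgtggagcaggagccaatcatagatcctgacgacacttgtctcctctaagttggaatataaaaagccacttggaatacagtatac
Bmp6: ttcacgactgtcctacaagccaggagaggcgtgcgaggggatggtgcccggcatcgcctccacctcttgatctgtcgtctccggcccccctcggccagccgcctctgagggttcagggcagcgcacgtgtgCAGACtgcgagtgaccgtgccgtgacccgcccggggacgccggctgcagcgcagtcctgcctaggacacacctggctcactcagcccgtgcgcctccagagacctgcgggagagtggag
Gdf11: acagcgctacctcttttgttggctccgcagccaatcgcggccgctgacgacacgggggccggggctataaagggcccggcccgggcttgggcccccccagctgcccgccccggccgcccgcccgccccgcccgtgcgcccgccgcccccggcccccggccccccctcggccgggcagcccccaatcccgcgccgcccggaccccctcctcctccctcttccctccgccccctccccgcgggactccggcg
Id3: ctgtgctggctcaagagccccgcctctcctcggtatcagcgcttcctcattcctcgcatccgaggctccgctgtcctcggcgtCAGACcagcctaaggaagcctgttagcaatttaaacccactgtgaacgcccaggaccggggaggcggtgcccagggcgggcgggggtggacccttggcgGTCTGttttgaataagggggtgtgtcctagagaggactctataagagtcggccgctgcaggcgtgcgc
Smad6: gccgccaaagtGTCTAGACtggcatatgat
Mstn and Id3 each hold 2 copies of the Smad box here, Bmp6 1, and the window of Gdf11 none of the 3 motifs. Of the called genes with a box in this window, Mstn and Bmp6 were lower after amputation and Id3 was higher.

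Beyond the 47, a list of 63 other genes of the pathway was read in the same fit, of which 51 could be tested in the second set. In the average 6 of 51 were called, 5 as higher and 1 as lower, beside the same 11.8% of all genes. Runx2, the transcription factor that commits cells to bone, was the clearest, with 22.8, 20.3 and 13.3 CPM against 5.25, 4.64 and 6.42 at day 7 and 21.0, 8.40 and 26.3 against 5.11, 6.05 and 5.55 at day 14. The groups did not overlap at either day. Amputated day 14 replicate 2, at 8.40, is the library with the low osteoblast sum given above for Tgfb3, and Emilin1 was also lower there, 20.8 CPM against 43.2 and 44.8; the part of osteoblasts was not tested. Runx2 was called at day 7 (1.79 ± 0.35, adjusted p = 0.0324), at day 14 (1.74 ± 0.35, 0.0367) and on average (1.76 ± 0.25, 0.00279). Bmper, an extracellular modulator of BMPs, rose by 0.73 ± 0.16 (adjusted p = 0.0171), Emilin1, which restrains TGF-beta maturation, by 0.89 ± 0.25 (0.0447) and Itgb8, an integrin subunit that activates latent TGF-beta, by 0.25 ± 0.07 (0.0311). Emilin1 overlapped at day 7, with 44.2, 23.7 and 18.2 CPM in amputated against 14.2, 22.5 and 15.9 in unamputated digits. Its unamputated libraries of day 14 had 17.3, 17.7 and 16.6. Neo1 (neogenin), a receptor of the BMP co-receptor family of repulsive guidance molecules, rose by 0.24 ± 0.07 (0.0495). Ski, a nuclear repressor of Smads, fell by 0.24 ± 0.06 (0.0298).

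Within the second set, days 14 and 7 were compared separately with and without amputation. None of the 46 genes was called in either, beside 0.607% and 0.303% of all genes, and none in the test of whether the effect of amputation differed between days, beside 0%, where 4 of 46 had an unadjusted p under 0.05 and 1092 of all genes did. Id4 had 29.2, 34.9 and 28.8 CPM at day 7 and 46.0, 44.5 and 42.1 at day 14 in amputated digits (0.51 ± 0.12, adjusted p = 0.0959), and 31.2, 30.1 and 31.0 against 42.5, 33.9 and 49.0 in unamputated ones (0.44 ± 0.12, 0.342). Day 14 was above day 7 without overlap in both. Acvr2a in unamputated digits was 41.4, 44.9 and 39.5 and then 55.1, 45.5 and 56.6 (0.32 ± 0.09, adjusted p = 0.391). Bambi followed the order of Id4, with 27.4, 28.8 and 31.5 and then 39.7, 36.7 and 32.2 in amputated digits, and 21.0, 26.7 and 25.4 and then 28.8, 29.7 and 32.9 in unamputated ones. Tgfbr3 in amputated digits had 93.1, 100 and 84.0 CPM at day 7 and 61.5, 72.2 and 76.6 at day 14, without overlap (-0.40 ± 0.105, adjusted p = 0.130), and the difference between the 2 time courses had an adjusted p of 0.772. DESeq2 called Id4 and Tgfbr3 in amputated digits (2.59% of all genes). In amputated digits 3 genes were above without overlap (6.52%, beside 8.78% of all genes) and 2 below (4.35%, beside 7.75%); in unamputated ones 4 were above (8.70%, beside 5.59%) and 2 below (4.35%, beside 5.30%).

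Counting libraries without overlap for amputation at each day, 7 genes were above at day 7 (15.2%, beside 10.4% of all genes): Id2, Bambi, Gdf11, Smad7, Tgfbr3, Chrdl1 and Gdf5. Below were 3 (6.52%, beside 8.86%), Chrd, Mstn and Bmp6. At day 14 there were 5 above (10.9%, beside 15.9%), Acvrl1, Id3, Fst, Gdf11 and Gdf5, and 6 below (13.0%, beside 16.7%), Acvr1b, Acvr1, Bmp2, Bmp6, Ltbp4 and Acvr2a.

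The time course asks how SNI alters the regenerating digit. By edgeR none of the 47 genes was called for SNI against sham at day 7, 14 or 21 or on average, and neither was any of the 16084 genes tested (0%). At an unadjusted p under 0.05 there were 4, 6, 1 and 6 of the 47, beside 2191, 954, 354 and 2248 of all genes. What follows are therefore values. DESeq2 called none of the 47 at day 7 (0.33% of all genes), Chrdl1 at day 14 (0.417%), Mstn at day 21 (0.0746%) and both on average (1.01%), whereas voom with library weights called 20 at day 7 and 28 at day 14, beside 48.1% and 54.2% of all genes, and none at day 21 or on average (0% each).

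Mstn had the smallest p of the list at day 21 and on average, while Gdf15 had it at day 7 and Chrdl1 at day 14. Sham digits had 2.81, 1.94 and 3.67 CPM at day 7, 4.38, 4.37 and 4.86 at day 14, and 6.03 and 4.74 at day 21. SNI digits had 2.12, 1.80 and 1.97 at day 7, 1.22, 3.99 and 1.57 at day 14, and 1.56, 1.23 and 1.51 at day 21. Day 7 overlapped, while all SNI libraries were below all sham libraries at day 14 and at day 21. The log2 fold change was -1.14 ± 0.22 on average (adjusted p = 0.288) and -1.90 ± 0.41 at day 21 (adjusted p = 1). SNI day 14 replicate 2, with the highest Mstn of the SNI libraries, also had the highest Schwann cell sum of all SNI libraries, 249.8 CPM against 89.8 to 176.2 in the others and 152.8 to 289.6 in sham. In sham digits of day 7 the order differed: replicate 3 had the highest Mstn but the lowest sum, 152.8 against 289.6 and 275.8. Without SNI day 14 replicate 2, Mstn was called on average (-1.37, adjusted p = 0.0165). The 7 muscle genes summed to between 2.21 and 8.23 CPM in the time course. The highest sum, 8.23, was in sham day 21 replicate 1, which also had the highest Mstn, and SNI day 14 replicate 2 had 4.66, against 2.93 and 4.125 in the others of its group. The next highest, 6.05, was in SNI day 7 replicate 2, which had the lowest Mstn of its group, 1.80. The 2 highest sums were thus in the 2 libraries with TMM factors under 0.8. The part of Schwann and muscle cells in these values was not tested.

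Other ligands were mostly lower by value at the first days. Bmp6 was 7.49, 1.92 and 5.96 CPM in SNI against 12.4, 9.72 and 10.1 in sham digits at day 7, and 8.32, 8.05 and 4.87 against 9.71, 10.6 and 8.56 at day 14, without overlap at both. Its fold changes were -1.06 ± 0.46 and -0.44 ± 0.46 (adjusted p = 0.301 and 0.605). Gdf5 had 1.498, 1.544 and 2.313 CPM in SNI and 0.652, 1.05 and 1.25 in sham digits at day 14 (0.86 ± 0.30, adjusted p = 0.578). Gdf15, a stress-induced distant member of the family, had at most 0.517 CPM in any library, with 0.200, 0.517 and 0.377 in SNI and 0.112, 0.0815 and 0.168 in sham digits at day 7 (1.56 ± 0.47, adjusted p = 0.301). Inhba at day 21 had 2.56, 2.03 and 1.10 CPM in SNI and 1.60 and 6.01 in sham digits (-1.02 ± 0.58, adjusted p = 1), so 1 sham library lay within the SNI range and the other above it.

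**Figure D4:**
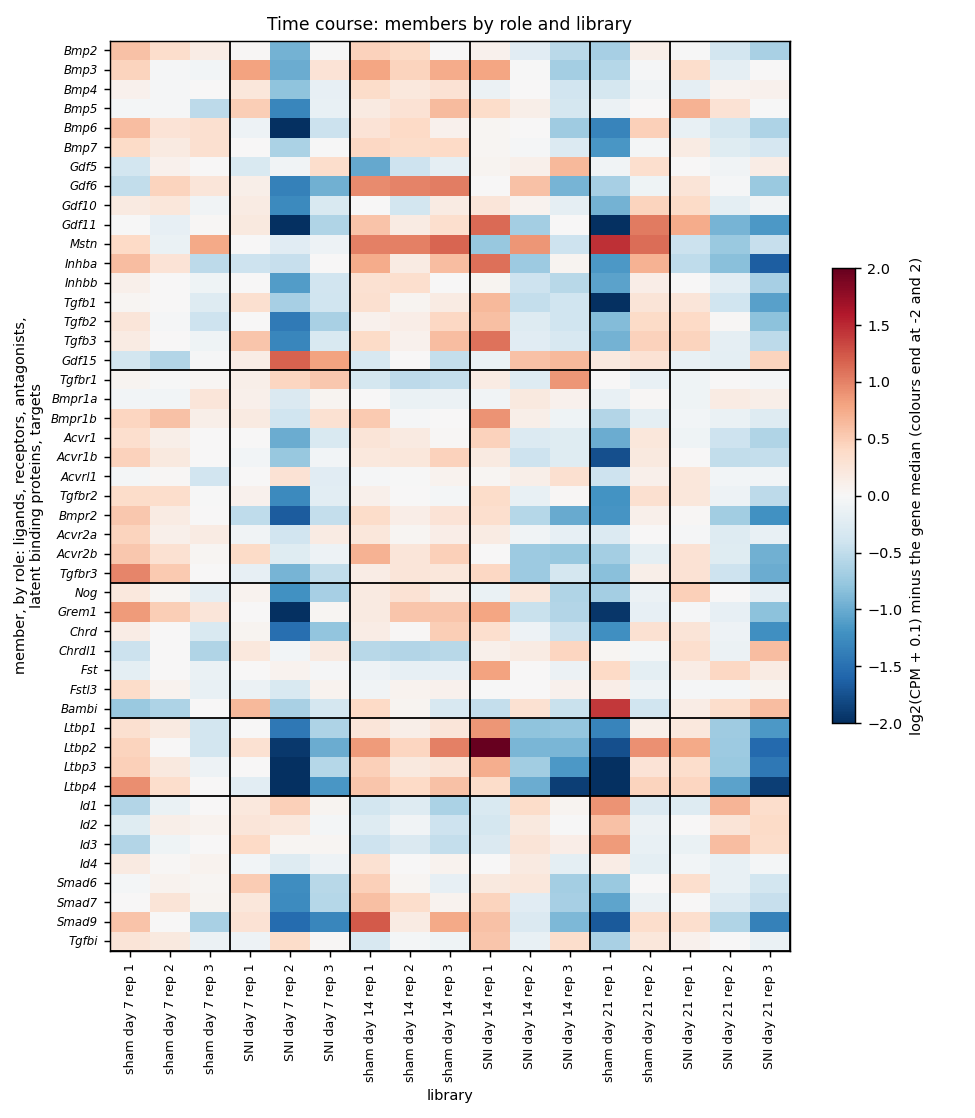
Log2(CPM + 0.1) of the 47 genes minus the median of each gene over 17 libraries of the time course (colour, ending at -2 and 2), genes in rows by role and libraries in columns by group. SNI day 7 replicate 2 and sham day 21 replicate 1, the 2 libraries with TMM factors under 0.8, are blue for most genes, and the 4 Ltbp rows are blue in both.

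Among receptors, Tgfbr1, the type I receptor of TGF-beta, was 55.1, 67.9 and 73.7 CPM in SNI against 52.3, 50.6 and 52.2 in sham digits at day 7 and 56.8, 42.3 and 93.1 against 39.6, 35.01 and 36.53 at day 14, without overlap at both days. At day 21 the values met, 47.5, 50.9 and 49.4 against 50.6 and 45.6. The fold change was 0.79 ± 0.23 at day 14 (adjusted p = 0.578) and 0.39 ± 0.14 on average (0.337). The summed CPM of 6 osteoclast genes had the same order among the SNI libraries of day 14 as Tgfbr1, with 1505, 256 and 3086 against 201.2 to 311 in sham digits, so replicate 2 lay within the sham range. At day 7 it was 754.7, 1078 and 1794 in SNI against 803.4 to 1141 in sham. The part of osteoclasts in the Tgfbr1 values was not tested. Bmpr2 was 93.5, 41.8 and 95.9 against 192.4, 148.5 and 133.1 at day 7 (-1.04 ± 0.44, adjusted p = 0.301), and Tgfbr3 46.8, 27.6 and 37.5 against 103.1, 75.3 and 52.6 (-1.05 ± 0.39, 0.301). Bmpr1a, the receptor with the highest level, was 179.1, 136.6 and 172.5 against 160.0, 160.4 and 195.9 at that day.

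Chrdl1 led the antagonists. It had 12.4, 10.3 and 12.2 CPM in SNI against 7.93, 10.7 and 7.01 in sham digits at day 7, 11.5, 12.0 and 14.5 against 7.29, 7.09 and 7.22 at day 14, and 13.5, 9.89 and 16.5 against 11.0 and 10.4 at day 21. Only day 14 was without overlap (0.82 ± 0.21, adjusted p = 0.555), and the average was 0.53 ± 0.13 (0.327). Nog (noggin) at day 21 was 5.35, 3.81 and 3.37 against 2.34 and 3.52 (0.51 ± 0.37, adjusted p = 1).

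All 4 latent TGF-beta binding proteins had negative averages, with a median of -0.35 (all genes 0.01), and all 4 were lowest in the 2 libraries with small TMM factors. Ltbp4 had 18.5 CPM in sham day 21 replicate 1 and 23.3 in SNI day 7 replicate 2, where the other 15 libraries had between 76.3 and 537.3 with a median of 360.0. Of these, the sham libraries had between 282.4 and 537.3. SNI replicate 1 had 243.5, 364.6 and 378.4 at days 7, 14 and 21, and the other SNI libraries between 76.3 and 141.3. Against the other libraries of their own group, the 2 libraries with small TMM factors were lower for 37 and 40 of the 47 genes. Across all 14831 genes with a transcript length, those differences correlated with log2 length (Pearson r = -0.602 and -0.421, genes being no independent replicates), and across the 47 genes the r was -0.373 and -0.435. With GC content the r across the 47 genes was -0.399 and -0.148. SNI day 7 replicate 2 also had a sum of 14050 CPM over 8 neutrophil genes, against 11.7 to 264 in the other libraries, 1056 over the erythroid and 576.6 over the adipocyte genes. Sham day 21 replicate 1 had the highest sum of 4 erythroid genes, 1898 CPM, and a sum of 459.8 over 4 adipocyte genes, where its partner had 114.8 and 50.08. The part of these cells in the values was not tested. Without both libraries no gene of the list was called in any of the 9 comparisons of the time course. The share of all genes called in that fit is not given here, so the count says nothing particular to the list.

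Targets were split. Id3 was 132.0, 102.9 and 103.2 CPM in SNI against 66.9, 94.6 and 100.6 in sham digits at day 7 and 82.7, 120.9 and 110.6 against 75.7, 82.5 and 72.5 at day 14, without overlap at both days, and at day 21 sham replicate 1 was highest of all libraries with 181.2. The fold changes were 0.37 ± 0.27, 0.45 ± 0.27 and -0.12 ± 0.30 (adjusted p = 0.357, 0.578 and 1). Id1 had 93.5, 113.1 and 84.5 against 53.8, 73.8 and 81.2 at day 7. Smad7 had 24.7, 8.76 and 14.2 against 21.1, 25.3 and 21.8, and Smad9 1.66, 0.395 and 0.488 against 2.05, 1.35 and 0.818, at the same day. On average 4 targets had positive and 4 negative values. A like split lay between libraries of 1 group. In log2 CPM, sham day 21 replicate 1 minus replicate 2 was 0.353 to 1.18 for the 4 Id genes. It was -0.753 for Smad6, -0.944 for Smad7, -2.18 for Smad9 and -0.887 for Tgfbi. SNI day 7 replicate 2 minus its group's others was -0.181 to 0.348 for the Id genes, -1.22 to -1.09 for the Smads and 0.406 for Tgfbi. The part of such library differences in the SNI values was not tested.

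**Figure D5:**
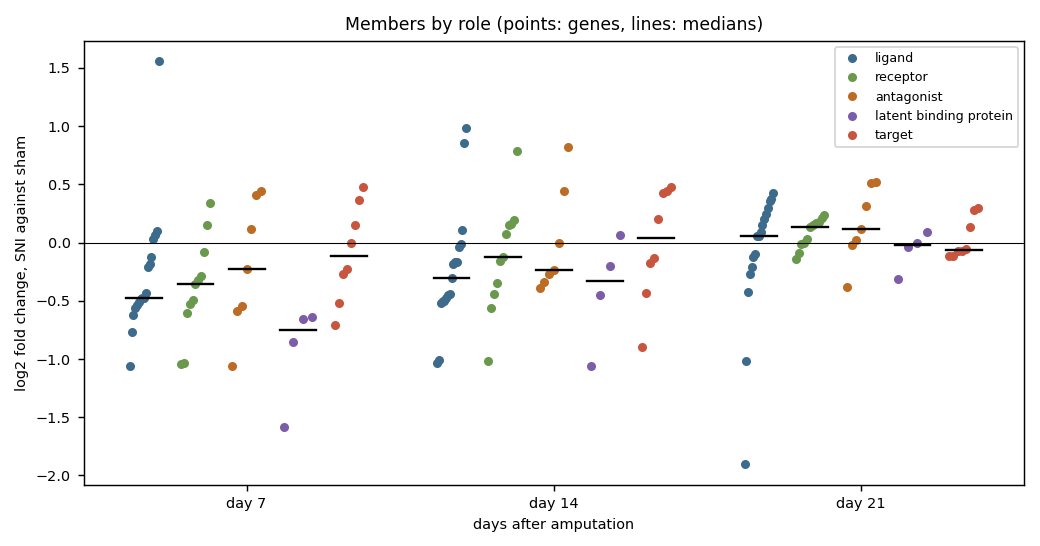
Log2 fold change of each of the 47 genes (points) in SNI against sham digits at days 7, 14 and 21 after amputation, by role (colours), with lines at role medians. At day 7 the medians of all 5 roles are below 0, and at day 21 the lowest point is Mstn at -1.90.

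Over the whole list, 35 of 47 fold changes were negative at day 7 (median -0.44, all genes 0.02), 32 at day 14 (-0.18, all genes 0.03) and 21 at day 21 (0.05, all genes -0.10). These medians moved with single libraries. With 1 library left out, day 7 ran from -0.59 (without SNI replicate 1) to -0.13 (without SNI replicate 2) and day 14 from -0.50 (without SNI replicate 1) to -0.04 (without SNI replicate 3). Day 21 ran from -0.24 (without sham replicate 1) to 0.64 (without sham replicate 2), and so on both sides of 0. Groups without overlap were 4 above at day 7 (8.51%, beside 13.7% of all genes) and 10 below (21.3%, beside 23.8%), 4 above at day 14 (8.51%, beside 11% of all genes) and 8 below (17.0%, beside 12.2%), and none above at day 21 (beside 4.36%) and 1 below, Mstn (2.13%, beside 3.30%). Id3 and Tgfbr1 were above at both day 7 and day 14 (4.26%, beside 3.97%), and Acvr1b, Bmp6, Bmp7 and Ltbp4 below (8.51%, beside 7.47%). No gene of the list was above or below at all 3 days, as 0.137% and 0.112% of all genes were. In the test of whether the effect of SNI differed between days none was called (0% of all genes), at an unadjusted p under 0.05 none of the 47 and 588 of all genes; the smallest p were of Gdf15, Mstn and Bmp7 (adjusted p = 0.712 each). Of the 63 other genes of the pathway, 55 were tested in the time course and none was called.

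Changes with time in the time course were not called either, 0 of 47 and 0% of all genes for day 14 or 21 against day 7 in sham and in SNI digits. In sham digits Mstn was higher by value at day 14 (0.69 ± 0.37, adjusted p = 1) and at day 21 (0.94 ± 0.40, 0.229) than at day 7, without overlap at both, whereas in SNI digits all day 21 libraries were below all day 7 ones. Tgfbr1 in sham digits was below its day 7 values at day 14 (-0.48 ± 0.23, adjusted p = 1), and Gdf6, a joint ligand, was 2.35, 2.42 and 2.48 CPM at day 14 against 0.804, 1.63 and 1.41 at day 7 (0.91 ± 0.48, 1). At day 21 in sham digits, Bmp7 had 24.6 and 53.4 CPM against 72.1, 62.5 and 68.8 at day 7 (-0.80 ± 0.30, adjusted p = 0.222), and Bambi 99.5 and 28.3 against 22.4, 24.5 and 37.4 (1.18 ± 0.49, 0.223). Without sham day 21 replicate 1 their fold changes were -0.34 and 0.01. Without replicate 2, which leaves replicate 1 as the lone sham library of that day, 16 genes of the list were called for sham at day 21, beside 50.7% of all genes, and 3 (Bmp7, Tgfb1 and Acvr1b) for a difference of the SNI effect between days, beside 20.6%. In SNI digits Ltbp2 at day 14 had 63.2, 7.67 and 7.70 CPM against 17.9, 3.74 and 7.23 at day 7 (1.44 ± 0.90, adjusted p = 0.876), but without replicate 1 of day 14 the value was -0.33. Tgfb2, another TGF-beta ligand, had 33.2, 18.4 and 16.6 CPM at day 14 against 21.9, 8.12 and 14.0 at day 7 (0.63 ± 0.43, adjusted p = 0.876), and the activin type II receptor Acvr2b 0.955, 0.540 and 0.524 against 1.28, 0.791 and 0.887 (-0.55 ± 0.37, adjusted p = 0.876). Both overlapped. For day 21 against day 7 in SNI digits the smallest p were of Gdf15 (-0.95 ± 0.46, adjusted p = 1), Nog (0.65 ± 0.33, adjusted p = 1) and Tgfbr1 (-0.41 ± 0.23, adjusted p = 1), the last with 47.5, 50.9 and 49.4 against 55.1, 67.9 and 73.7 CPM and no overlap.

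Without overlap there were in sham digits 6 genes above at day 14 (12.8%, beside 8.11% of all genes) and 1 below (2.13%, beside 9.39%), and 2 above at day 21 (4.26%, beside 9.89%) and 8 below (17.0%, beside 10.7%). In SNI digits there were none at day 14 (beside 2.88% above and 2.04% below), and at day 21 Fst was above (2.13%, beside 2.75%) and Inhba, Mstn and Tgfbr1 below (6.38%, beside 2.42%). Voom called 4 genes for sham at day 14 (beside 11% of all genes), Bmp3, Bmp4, Mstn and Tgfbr1, and 5 for SNI at day 21 (beside 8.46%), Gdf15, Acvr2a, Fst, Id1 and Id3.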

How the data were processed

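Poly(A) RNA of 29 mouse digit libraries had been counted per gene, and the authors deposited these values as raw counts in a table of 17 libraries (the time course) and a table of 12 (the second set). The build was GRCm39 per the submitters' processing notes; an aligner or counter was not given in the sources used here. Per the labels' protocols the kit kept strand, and the samples are labelled as biological replicates. Groups came from the labels, and all columns mapped to a sample. Symbols were found for 55141 of 55487 identifiers (99.4%) of the second set.

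Each table was fitted apart with edgeR 4.0.16 in R 4.3.3 (TMM scaling, filterByExpr with a minimum count of 10 and total of 15, robust quasi-likelihood fit on group means, 11 and 8 residual degrees of freedom). Common coefficients of variation were 0.393 and 0.17. Every adjusted p in the text without another tool's name is from edgeR's quasi-likelihood test, Benjamini-Hochberg over all genes tested, with a gene called under 0.05. SE is that of the log2 fold change, and CPM (counts scaled per megaread) uses TMM-scaled totals. Exon lengths and promoters came from GRCm38 annotation, used for names, lengths and promoter sequences only. The test was tried on simulated data first.

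The members and the marker and pathway lists were chosen with earlier results of these data known. Some genes of these lists are not reported here and were left out of their sums and counts. Values per library are given for called members (up to 10 per comparison) or, with fewer than 3, for the 3 smallest p, though not for every group. Up to 6 called genes of the pathway list are named, with values per library for Runx2 and Emilin1 only. Further members were named to fill the roles, after their values were seen. Alternatives were RLE scaling, no filter, DESeq2 1.42.0, voom with library weights (limma 3.58.1), the compared groups alone, a replicate block, each library left out, and the 2 libraries with TMM factors under 0.8 left out.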

Additional observations from a re-analysis of the deposited data

How the results depend on the processing

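Among alternatives, DESeq2 called 1, 1 and 2 genes of the list for SNI at day 14, at day 21 and on average, where edgeR called 0, and 3, 4 and 8 for amputation at day 7, at day 14 and on average (edgeR 1, 0 and 5), and 2 for day 14 against day 7 in amputated digits (edgeR 0). Voom called 20 and 28 for SNI at days 7 and 14, 4 for sham at day 14, 5 for SNI at day 21 against day 7, and 11 and 8 for amputation at day 14 and on average. For amputation at day 7, no filter gave 2 (0.836% of all genes) and the compared groups alone 0 (0.337%). Leaving out 1 library gave 0 to 1 for amputation at day 7, 0 to 2 at day 14 and 3 to 7 on average, 0 to 2 and 0 to 1 for time in amputated and unamputated digits, 0 to 1 for SNI on average, 0 to 3 for the SNI effect by day and 0 to 16 for sham at day 21; a group reduced to 1 library borrows the spread of the rest. The same fits called 0.762% of all genes where amputation at day 14 gave 2, 4.13% and 7.08% where its average gave 3 and 7.91% where it gave 7, 0.667% and 0.359% where time gave 2 and 1, 0.0125% for SNI on average, 20.6% for its effect by day and 50.7% for sham at day 21. The average count of 3 came without unamputated day 7 replicate 1 or day 14 replicate 1. For amputation at day 7 with 1 library left out, the share of all genes is not given here. The sign changed for Inhba with SNI at day 21 without sham replicate 2 (0.24, and from -1.66 without replicate 1) and for Ltbp2 in SNI at day 14 against day 7 without day 14 replicate 1 (-0.33, and up to 2.25 without day 7 replicate 1). The cause of these changes was not tested.

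Deviations of same-numbered SNI and sham libraries from their group means had correlations of 0.243, 0.147 and 0.105 at day 14. Pairs of unlike number had -0.236 to 0.15 at that day. Same-numbered ones had 0.387, 0.241 and -0.0933 at day 7, where pairs of unlike number had -0.398 to 0.269. At day 21 same-numbered ones had -0.787 and -0.243. The deviations of the 2 sham libraries of that day mirror each other, so these values cannot decide on pairing. Same-numbered amputated and unamputated libraries had -0.163, -0.00995 and -0.203 at day 7 and -0.0236, -0.0508 and 0.022 at day 14. The numbers were not taken as pairs across the design. With the replicate block, 1 gene of the list was called for amputation at day 7, 5 on average and 0 in all other comparisons, the counts of the fit without it. The share of all genes called with the block is not given here, so these counts say nothing particular to the list. Of the recomputed counts, 291 stayed within 1.5 times the reported one and 29 did not. A count of 0 that stayed at 0 is among the former, and the reported count was above 0 only for amputation at day 7 and on average. The tally therefore does not measure how stable the calls were. Low counts limit the precision of genes such as Gdf15, Gdf11, Acvr2b and Smad9.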
